A study of Drosophila melanogaster with 2 samples.

Results

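The 8 Hox genes of Drosophila melanogaster were followed through the peak lists of a chromatin immunoprecipitation sequencing (ChIP-seq) experiment on the tagged protein homeobrain. They are labial (lab), proboscipedia (pb), Deformed (Dfd), Sex combs reduced (Scr) and Antennapedia (Antp) of the Antennapedia complex, and Ultrabithorax (Ubx), abdominal A (abd-A) and Abdominal B (Abd-B) of the bithorax complex. They were chosen by name, and are 8 of the 13968 protein-coding genes on the chromosome arms in the gene models used. Homeobrain (hbn) is a paired-like homeodomain transcription factor, named for its expression in the embryonic brain. The animals were transgenic flies of the strain hbn-GFP, which carry hbn fused to eGFP, and both samples share that genotype. Whole embryos of 0 to 18 h were used, chromatin was sonicated to 200 to 800 bp, and the fusion was precipitated through its GFP. There was 1 group with 2 biological replicates, and the control experiment was not used here. Chromatin of a whole embryo pools all cell types and stages of that window, so a peak does not say in which cells the protein sat.

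Hox genes encode homeodomain transcription factors that give segments their identity along the head to tail axis, and the order of the genes on the chromosome follows the order of the body regions they pattern. Their initial domains are set by gap genes, and the domains are then kept by Polycomb group proteins, which hold the genes off, and Trithorax group proteins, which hold them on. Long introns and the spacers between the genes hold the enhancers, insulators and Polycomb response elements through which this happens.

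Each entry of a peak list gives the place of a peak and of its summit. It also has a deposited signal, the enrichment given by the peak caller, and a deposited score of up to 1000. The score is a scaled form of the IDR, the irreproducible discovery rate, which is low where a peak ranks high and alike in a pair of lists. The lowest score in each thresholded set was 830, an IDR of 0.01. The conservative set came from comparing one replicate with the other and held 3592 entries on the chromosome arms, and 88.9% of its summits lay within 500 bp of an annotated transcript start. Replicate 1's own thresholded set held 3274 such entries, replicate 2's 2185 and the pooled set 3727. The longer ranked lists from which the sets were cut held 106659 entries for the replicates compared, 83899 for the pooled data, 58824 for replicate 1 and 69097 for replicate 2. No read numbers were used, the depth of the libraries is unknown, and signals are set side by side only within a list.

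In the conservative set, 4 of the 8 Hox genes were called, which means that a summit lay inside the gene or at most 5 kb beyond its ends. They were Ubx with 4 summits, and pb, Antp and abd-A with 1 each. By the same rule 50.1% of all protein-coding genes were called, and 57.8% of the 1985 that are 10 kb or longer, a class that includes every Hox gene. The Hox share was therefore near that of the background. The pooled set called 2 of 8, pb and Ubx, against 50.1%. Replicate 1's set called 2, Antp and Ubx, against 47.3%, and replicate 2's set 1, Ubx, against 37.6%. For lab, Dfd, Scr and Abd-B the nearest conservative summit lay 30.5, 32.3, 63.6 and 28.0 kb from the gene. In the sets of replicates 1 and 2 that distance was 201 and 201 kb for lab, 199 and 265 kb for Dfd and 151 and 217 kb for Scr, and for Abd-B it was 30.2 and 30.1 kb.

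Only 1 of the 8 Hox genes, abd-A, had a conservative summit within 500 bp of a start of its own, against 26.5% of all protein-coding genes and 30.9% of the long ones. The pooled set and the sets of replicates 1 and 2 had 0 of 8 Hox genes with such a summit, against 26.6%, 24.5% and 17.6%. Of the 7 summits, 3 lay inside a Hox gene, and 6 were nearer to an annotated start of another gene than to a Hox start. Summits over 500 bp from any annotated start were found at pb and Ubx, 2 of 8 genes, against 5.84% of all protein-coding genes and 12.6% of the long ones. When summits within 500 bp of the start of another protein-coding gene were left out, 4 of 8 Hox genes were still called, against 17.5% of all and 31.1% of the long genes. Both of these rules were chosen after seeing the data, and their background shares were computed for the conservative set only. In the pooled set either rule left pb and Ubx. In replicate 1's set the first rule left Ubx, and the second Antp and Ubx. In replicate 2's set neither rule left a Hox gene, as its Hox summits all lay within 500 bp of starts of other coding genes. The map of entries along the complexes shows where each of them lay.

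**Figure D1:**
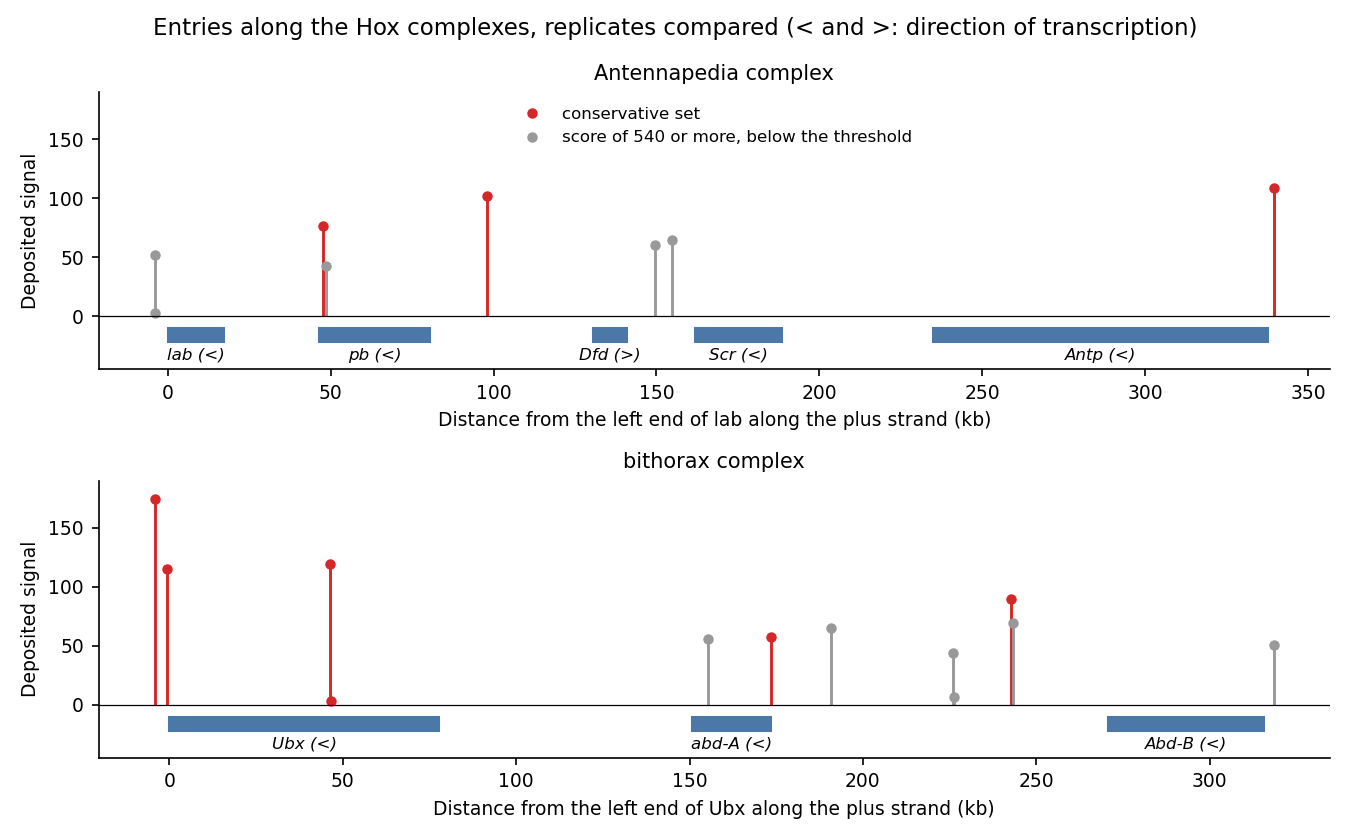
Deposited signal (vertical axis) of the entries with a score of 540 or more in the list of the replicates compared, along the Antennapedia and bithorax complexes (horizontal axis, kb from the left end of lab and of Ubx), with the gene bodies as blue bars. Red entries are in the conservative set and grey ones below its threshold. The tallest stands 174 high just beyond the end of Ubx, and no red entry lies in the bodies of lab, Dfd, Scr, Antp, abd-A or Abd-B.

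The sequences under the 6 separate stretches that carry these summits are given first, to show the letters at each place where a Hox gene was called. Each is the plus strand of chromosome arm 3R in the Release 6 assembly, which dm6 also is, read from the RefSeq copy 100 bp to each side of the summit, or less where transcribed ends were trimmed. Capitals mark matches, on both strands, of 3 short words: TATCGATA, the word bound by the DNA replication-related element factor (DREF), which is its own reverse complement; GAGAG or CTCTC, bound by GAGA factor; and GCCAT or ATGGC, the core of the word bound by Pleiohomeotic. Overlapping matches were counted separately.
Ubx flank at CG14907 (chr3R:16652320-16652445): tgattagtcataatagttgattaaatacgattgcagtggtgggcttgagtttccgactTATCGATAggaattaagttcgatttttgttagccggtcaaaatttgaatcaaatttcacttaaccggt
Ubx flank at modSP (chr3R:16655735-16655935): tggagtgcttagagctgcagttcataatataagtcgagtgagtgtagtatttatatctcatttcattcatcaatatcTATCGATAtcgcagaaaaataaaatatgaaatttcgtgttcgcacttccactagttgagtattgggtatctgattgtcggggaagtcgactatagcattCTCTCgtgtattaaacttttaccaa
Ubx intron (chr3R:16702881-16703081): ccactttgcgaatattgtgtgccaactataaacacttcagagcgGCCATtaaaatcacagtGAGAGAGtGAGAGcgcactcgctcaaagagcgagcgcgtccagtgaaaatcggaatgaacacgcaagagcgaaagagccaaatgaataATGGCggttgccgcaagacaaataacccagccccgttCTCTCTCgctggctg
abd-A start (chr3R:16830096-16830296): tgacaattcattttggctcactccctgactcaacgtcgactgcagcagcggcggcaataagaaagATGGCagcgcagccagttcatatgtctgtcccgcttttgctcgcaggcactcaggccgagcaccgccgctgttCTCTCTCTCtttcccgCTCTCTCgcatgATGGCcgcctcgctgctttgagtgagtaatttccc
Antp upstream (chr3R:7000806-7001006): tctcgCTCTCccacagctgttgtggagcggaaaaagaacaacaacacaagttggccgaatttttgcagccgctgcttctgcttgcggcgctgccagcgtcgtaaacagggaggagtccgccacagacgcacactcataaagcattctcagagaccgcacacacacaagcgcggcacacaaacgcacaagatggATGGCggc
pb intron (chr3R:6708972-6709172): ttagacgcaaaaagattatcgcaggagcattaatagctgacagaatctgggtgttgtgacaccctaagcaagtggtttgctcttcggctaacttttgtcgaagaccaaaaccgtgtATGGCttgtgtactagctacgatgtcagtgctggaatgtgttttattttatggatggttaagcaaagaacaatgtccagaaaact

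Ubx patterns the posterior thorax and anterior abdomen, and its loss turns the haltere into a wing. The gene (FBgn0003944) spans 77.8 kb of the minus strand, chr3R:16656623-16734426. It was the Hox gene with most conservative summits and the only Hox gene called in all 4 thresholded sets, with 4 conservative summits, 5 pooled ones, and 3 and 2 in the sets of replicates 1 and 2. The pooled count includes an entry with a signal of 16.9 that overlaps the one at the CG14907 start, with summits 213 bp apart.

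The strongest Ubx summit, at chr3R:16652123-16652582, had a signal of 174 in the conservative set, above 67.6% of that set. It had a signal of 113 in replicate 1's ranked list and 76.9 in replicate 2's, with a score of 1000 in each. Both replicates therefore held it past the threshold on their own. It lay 4270 bp beyond the 3′ end of Ubx, in intergenic sequence 34 bp upstream of the start of CG14907, and its window holds TATCGATA.

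The other flanking summit, at chr3R:16655605-16656064, had a signal of 115, with 68.5 in replicate 1 (score 1000) and 41.0 in replicate 2 (score 983). It lay 788 bp beyond the 3′ end of Ubx and 78.6 kb from the Ubx start, but 173 bp upstream of the start of modSP, a gene for a serine protease of the Toll immune pathway. Its window also holds TATCGATA. The flank on that side was crowded. The next summit out, at 5448 bp and so just outside the 5 kb limit, had a signal of 148 and was nearest to the start of Mettl4.

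The summit inside Ubx, at chr3R:16702751-16703210, lay in an intron 31.4 kb downstream of the Ubx start, 7581 bp from the nearer exon and 47.3 kb from the nearest start of another coding gene, modSP. The nearest start of any other gene was that of asRNA:PS4, a non-coding antisense RNA, 17146 bp away. Its signal was 119, in the middle of the conservative set. Among the 400 conservative summits over 500 bp from any start the median was 83.0.

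In replicate 1 this intronic entry had a signal of 85.2 and a score of 1000, and in replicate 2 a signal of 34.0 and a score of 455. It was past the threshold in replicate 1 alone. An overlapping entry with its summit 207 bp away and a signal of 3.47 is the fourth Ubx summit; each replicate's list had only 1 entry there, so the pair is counted as 1 stretch. The window of the stronger entry holds 5 matches of GAGAG and 2 of GCCAT.

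abd-A gives the middle abdominal segments their identity. The gene (FBgn0000014) spans 22.8 kb of the minus strand, chr3R:16807214-16830049. Its summit, at chr3R:16829966-16830425, lay 147 bp upstream of its outermost start. The signal was 57.1, above only 9.97% of the conservative set, and the score was 848, close to the lowest in the set. Replicate 1's list gave it a signal of 37.6 with a score of 71, and replicate 2's 28.3 with 354. Neither replicate held it past the threshold on its own, and in the pooled ranked list its score was 573. The window holds 5 matches of GAGAG and 2 of GCCAT, the same numbers as in the Ubx intron.

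A further abd-A entry below the threshold lay in an intron at chr3R:16811847-16812306, with a signal of 55.4 and a score of 804, and with signals of 32.0 and 29.5 in replicates 1 and 2. Its window holds 4 matches of GAGAG and 1 of GCCAT.

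Antp specifies the thorax, and in its dominant alleles it turns antennae into legs. The gene (FBgn0260642) is the longest of the 8, at 103 kb of the minus strand, chr3R:6896253-6999228. Its summit, at chr3R:7000676-7001135, lay 1678 bp upstream of its outermost start, in an exon of the non-coding lncRNA:CR45899, 414 bp downstream of that gene's start. The signal was 109 and the score 1000. Replicate 1's list gave a signal of 69.7 and a score of 1000, whereas 0 entries of replicate 2's ranked list or of the pooled ranked list overlapped it. How the comparison of the replicates gave this entry its score is not known from the lists used here, and replicate 2 gives the call no support of its own. Within the 103 kb of the gene body there was no conservative summit.

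pb is needed for the mouthparts of the adult. The gene (FBgn0051481) spans 34.3 kb of the minus strand, chr3R:6707800-6742063. Its summit, at chr3R:6708842-6709301, lay in an intron at the far end of the gene, 33.0 kb downstream of its only start, 417 bp and 544 bp from the exons on either side. The nearest other start was that of Ccp84Aa, a cuticle protein gene, 4988 bp away. The signal was 76.2, above 23.2% of the conservative set. In replicate 1 the signal was 51.2 with a score of 264, and in replicate 2 it was 32.5 with a score of 49, so neither replicate held it past the threshold. Signals of those sizes ranked above 94.9% of each replicate's full list. The pooled set held the entry with a score of 1000.

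The plot of scores in each replicate sets the 6 stretches side by side. The pair at the CG14907 and modSP starts was past 830 in both replicates, the Antp and Ubx intron entries in replicate 1 only, and the pb and abd-A entries in neither.

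**Figure D2:**
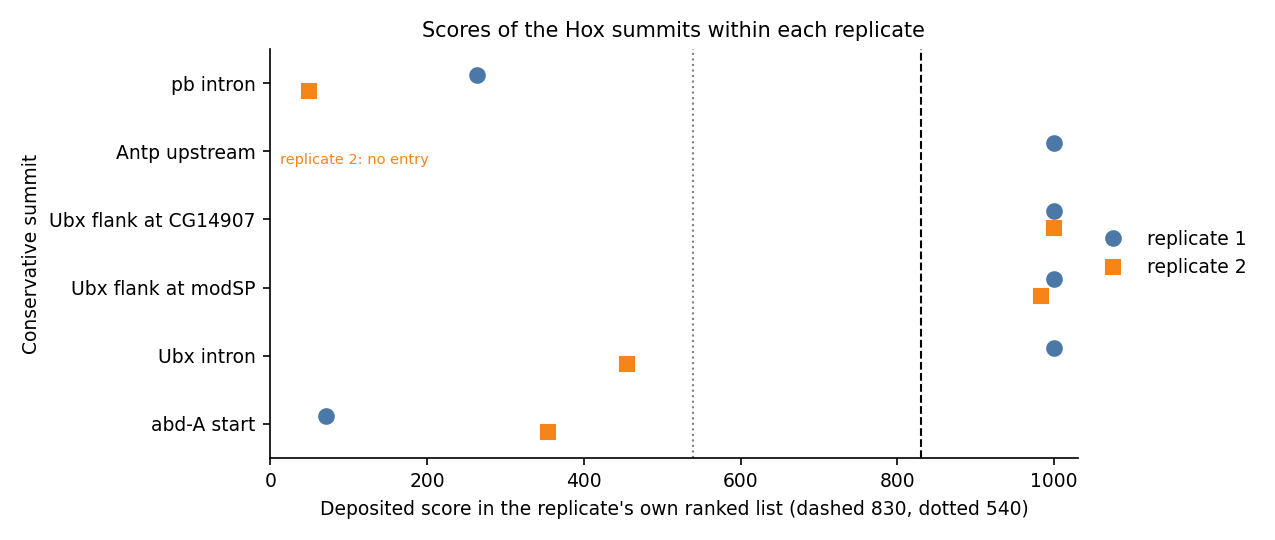
Deposited score (horizontal axis, up to 1000) of the 6 Hox stretches of the conservative set (vertical axis) in the ranked list of replicate 1 (circles) and of replicate 2 (squares), with the threshold of 830 dashed and 540 dotted. Only the entries at the CG14907 and modSP starts pass 830 in both, and the Antp entry has no counterpart in replicate 2.

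GAGAG and GCCAT were found at summits both inside and outside Hox genes, and TATCGATA only outside. TATCGATA was present within 100 bp of 2 of the 7 Hox summits, those at CG14907 and modSP, against 21.9% of all 3592 conservative summits and 8% of the 400 over 500 bp from any start. The shorter TATCGA, which TATCGATA contains on both strands, was at the same 2, against 48.5% and 18%. GAGAG was present at 5 of 7, against 26.1% and 49%, and GCCAT at 4 of 7, against 30.8% of all. The 5 with GAGAG include both overlapping entries of the Ubx intron, which form a single stretch.

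The Ubx intron and abd-A windows, with 5 GAGAG matches each, stood in a small class. Of the 3592 conservative windows 4.82% had 5 or more, 15.8% of those over 500 bp from any start and 3.45% of those nearer; the number 5 was chosen after the Hox values were seen. GGTCACAC, known as motif 1 of core promoters, was at 0 of 7 against 7.27%, and TAATTA, a word that homeodomains bind, at 0 of 7 against 11.4%. Hox windows ranged from 35.3% to 56.2% GC, against a median of 40.3% over all conservative windows. A match is a description of the letters and not a bound site, and 7 windows allow no firm comparison with the background.

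Support below the threshold was read from ranked entries with a score of 540 or more, an IDR of 0.05. In the list of the replicates compared, 6 of 8 Hox genes had such an entry in the gene or within 5 kb, against 59.7% of all protein-coding genes and 70.2% of the long ones. Added to those above were lab and Abd-B. In the pooled ranked list 6 of 8 had one, against 58.3%, in replicate 1's list 4 against 55.5%, and in replicate 2's list 2 against 46.4%. Dfd had none in any of the 4 lists. At an own start the numbers were 1 of 8 (abd-A) against 33.2%, 2 of 8 (lab and abd-A) against 32.7% in the pooled list, 0 against 30.6% in replicate 1's and 0 against 22.8% in replicate 2's.

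lab patterns the head and the midgut. Its entry in the list of the replicates compared, with a signal of 51.5 and a score of 661, lay 47 bp inside the start of its neighbour CG1307, and had signals of 34.7 and 23.6 in replicates 1 and 2. In the pooled ranked list lab had instead an entry 13 bp downstream of its own start, with a signal of 40.3 and a score of 559. Replicate 1's ranked list had no entry within 500 bp of a lab start, and replicate 2's had a signal of 19.0 with a score of 46.

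Abd-B gives the posterior abdomen and the genitalia their identity, and its many starts make it the Hox gene with most annotated starts, 6. Its entry in the list of the replicates compared lay 2875 bp outside the gene and 93 bp upstream of the start of VhaM9.7-d, a proton pump subunit gene, with a signal of 50.2 and a score of 548. The pooled ranked list held entries in its introns with signals of 58.1 (score 718) and 36.5 (score 701). The first of these had a score of 830 in replicate 1's ranked list, equal to the lowest in the thresholded sets, but was not in replicate 1's thresholded set, and the other a score of 794 in replicate 2's, and each was the only entry past 540 for Abd-B in that replicate's list.

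Scr, which patterns the labial segment and the prothorax, had no entry past 540 in the list of the replicates compared but 4 in the pooled ranked list. The strongest lay in an intron 2746 bp from its own start, with a signal of 48.3 and a score of 614. An entry that overlaps it, with its summit 201 bp away, had a signal of 22.7 and the same score. Others lay near the gene tRNA:Lys-TTT-2-1, with signals of 43.2 and 18.9. Dfd, which patterns the maxillary and mandibular segments, is the shortest Hox gene at 10.6 kb, and its strongest entry in the list of the replicates compared had a signal of 43.2, in replicate 1's list 29.7 and in replicate 2's 22.2.

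The starts of the Hox genes were also read in the full ranked lists. An entry of any score lay within 500 bp of an own start at 4 of 8 Hox genes (lab, Antp, abd-A and Abd-B) in the list of the replicates compared, against 76.8% of all protein-coding genes and 85.0% of the long ones. The number was 4 against 71.3% in the pooled list, 3 against 64.8% in replicate 1's and 5 against 67.4% in replicate 2's, where the Hox share was near the background. The starts of pb, Dfd and Ubx had none in any of the 4 lists. These genes have 1 annotated start each and the other Hox genes 2 to 6, so fewer windows were searched for them. The effect of the number of starts was not tested. The entry nearest to the Ubx start lay 14.6 kb away in the list of the replicates compared, that nearest to the pb start 12.5 kb and that nearest to the Dfd start 7.79 kb. In replicate 2's ranked list the nearest entries were 6.63 kb from the Ubx start and 2.70 kb from the Dfd start.

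Where a Hox start had an entry, its signal was moderate. In the list of the replicates compared the strongest was 40.3 at lab, 32.6 at Antp, 57.1 at abd-A and 30.6 at Abd-B, and the median over genes with an entry at a start was 48.4. The Antp entry lay at an inner start of the gene, not the outermost one. In replicate 2's list the strongest Abd-B entry lay at a different start from that in the other lists. With none taken as 0, the median over the 8 Hox genes was 15.3 and over all protein-coding genes 34.0. In replicate 1 these medians were 0 and 20.4, and in replicate 2 they were closer, 14.0 and 16.5. Only abd-A was above the median of genes with an entry in the list of the replicates compared, as the plot of signals at Hox starts shows.

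**Figure D3:**
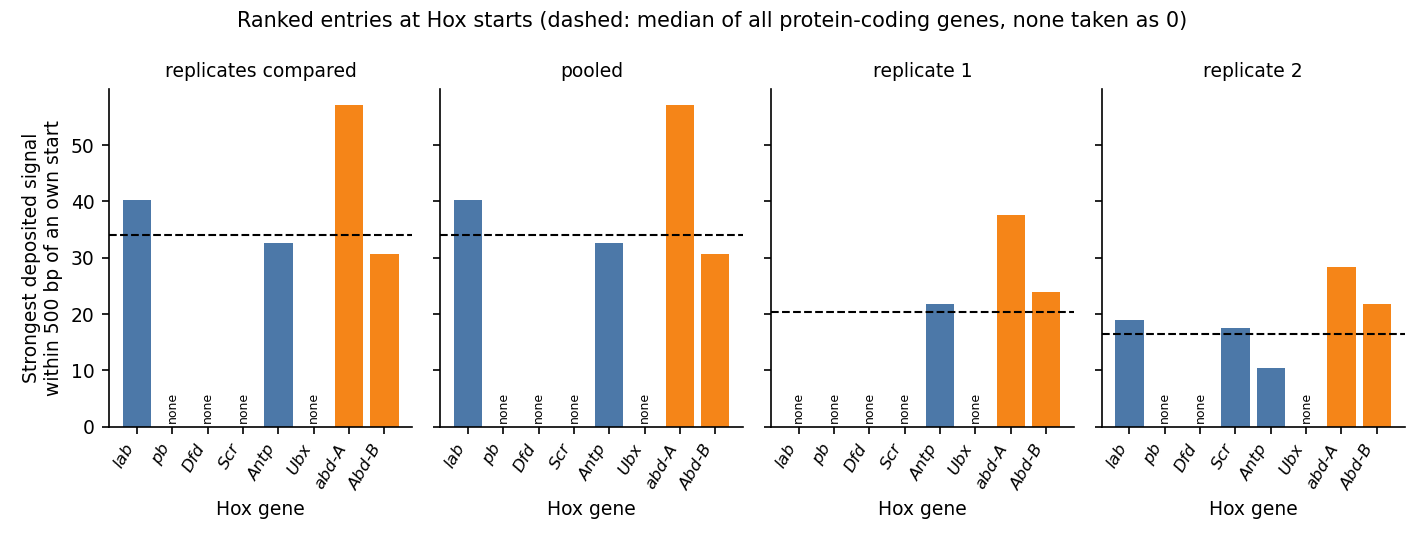
Strongest deposited signal (vertical axis) within 500 bp of an own start for each Hox gene (horizontal axis; blue, Antennapedia complex; orange, bithorax complex) in the ranked lists of the replicates compared, the pooled data, replicate 1 and replicate 2, with the median of all protein-coding genes dashed and genes without an entry taken as 0. The starts of pb, Dfd and Ubx, genes with 1 annotated start each against 2 to 6 for the others, are empty in all 4 lists. abd-A is the highest Hox gene in each list.

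Over the gene and 5 kb to each side, the strongest ranked entry in the list of the replicates compared ordered the Hox genes from Ubx at 174 through Antp at 109, pb at 76.2, lab at 59.6, Abd-B at 58.1, abd-A at 57.1 and Scr at 48.3 down to Dfd at 43.2. The median was 58.9, against 74.0 over all protein-coding genes and 89.5 over the long ones. In replicate 1 the Hox median was 40.9 against 47.1, and in replicate 2 it was 31.0 against 33.0. The Ubx values are those of the entry at the CG14907 start, outside Ubx, in all of these lists. The entry in the Ubx intron had a signal of 119, and in replicates 1 and 2 of 85.2 and 34.0, the latter below Abd-B. By the outside entry Ubx was first in both replicates, and Dfd was last in both. The order in between changed: Antp was second in replicate 1 at 69.7 and sixth in replicate 2 at 28.3, where Abd-B was second at 41.3. Neighbours in the order between lab and abd-A, at 57.1 to 59.6, did not keep it in both replicates.

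The Antennapedia and bithorax complexes were compared as stretches, from the outermost Hox gene ends with 5 kb added, 348 and 326 kb long. The Antennapedia complex held 3 conservative summits, 0.863 per 100 kb (exact Poisson 95% interval 0.178 to 2.52), and the bithorax complex 6, or 1.84 per 100 kb (0.676 to 4.01). The bithorax count includes the summits at the CG14907 and modSP starts, in the 5 kb added beyond Ubx, and both overlapping entries of the Ubx intron. The Antennapedia count includes the summit upstream of Antp, also in the added 5 kb. In replicate 2's set the summits at CG14907 and modSP were the only ones in the bithorax complex. Arm 3R as a whole held 2.52 per 100 kb (2.35 to 2.70). The intervals of the complexes overlapped each other, and they cover counting error only. Counting overlapping entries as 1, an alternative added after the data were seen, left 5 in the bithorax complex.

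Entries of any score were sparser in both complexes than along the arm. In the list of the replicates compared there were 59.8 per 100 kb in the Antennapedia complex (52.0 to 68.5) and 51.9 in the bithorax complex (44.4 to 60.3), against 81.9 on 3R (80.9 to 82.9). In replicate 1's list the values were 27.6 and 24.6 against 44.6, and in replicate 2's 41.1 and 43.6 against 55.0. Both were also below the arm in the pooled list, with 42.6 and 43.6 against 64.7. Entries can overlap and are not independent, so the intervals are too narrow. For entries with a score of 540 or more the complexes held 2.30 (0.993 to 4.53) and 3.69 (1.90 to 6.44) per 100 kb against 4.33, and both intervals include the value of the arm. In replicate 1's list the same score gave 1.15 (0.313 to 2.94) and 2.15 (0.864 to 4.43) against 3.68, and in replicate 2's 0.288 (0.00728 to 1.60) and 1.23 (0.335 to 3.15) against 2.54. The interval of the Antennapedia complex lay below the arm in both of those lists, and that of the bithorax complex included it.

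**Figure D4:**
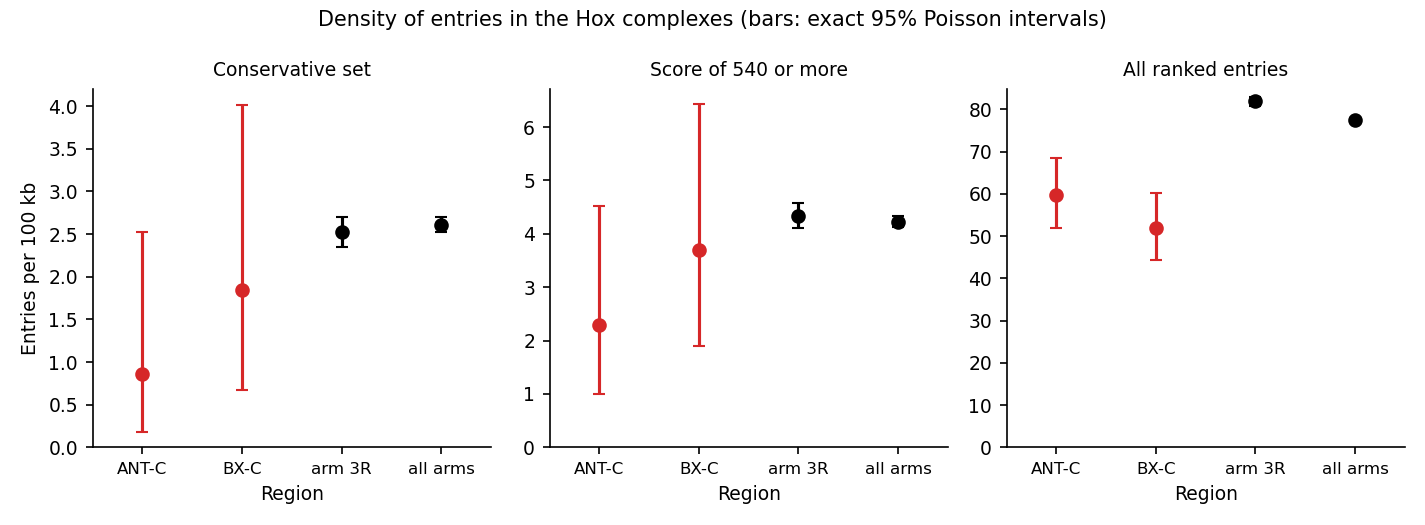
Entries per 100 kb (vertical axis) in the Antennapedia complex (ANT-C), the bithorax complex (BX-C), arm 3R and all chromosome arms (horizontal axis), for the conservative set, for scores of 540 or more and for all entries in the list of the replicates compared; bars are exact 95% Poisson intervals of counting error. For all entries both complexes (59.8 and 51.9) lie below 3R (81.9), whereas for scores of 540 or more their intervals include its value.

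The number of starts did not separate both complexes from the arm. There were 17.3 transcript starts per 100 kb in the Antennapedia complex, 12.6 in the bithorax complex and 17.1 on 3R. A conservative summit lay within 500 bp of 2 of 60 starts in the Antennapedia complex (3.33%, Wilson 95% interval 0.919 to 11.4) and 4 of 41 in the bithorax complex (9.76%, 3.86 to 22.5), against 20.4% on 3R. The 4 in the bithorax complex include starts of CG14907 and modSP, in the 5 kb added beyond Ubx. Starts of the same gene can share a summit.

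Long stretches in and beside the Antennapedia complex were without a conservative summit. The 241 kb between the summit at bcd and that upstream of Antp held the whole of Dfd, Scr and Antp, and was the 18th longest of 806 gaps on 3R, whose median was 10.3 kb. The gap of 248 kb that ends at the pb summit held lab and was the 13th longest, but most of it lay outside the complex.

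Conservative summits in the complexes but not at a Hox gene numbered 1 in each. That of the Antennapedia complex lay 46 bp upstream of the start of bcd, the maternal gene for the head morphogen Bicoid, with a signal of 102, and 64.2 and 43.6 in replicates 1 and 2. That of the bithorax complex lay in an intron of lncRNA:iab8, a non-coding RNA of the abd-A to Abd-B spacer, 649 bp from its start, with a signal of 89.5, and 39.2 and 45.7 in the replicates. The pooled set held both summits, but neither was in the thresholded set of replicate 1 or of replicate 2. Of the other protein-coding genes inside the complexes, 3 of 15 in the Antennapedia complex and 1 of 3 in the bithorax complex were called, against 50.1% of all protein-coding genes. They were bcd, Ama, Ccp84Aa and MSAmiP, with Ccp84Aa called only through the pb intron summit. All of them had 0 summits in the sets of replicates 1 and 2. Among the homeobox and immunoglobulin genes interspersed with the Hox genes (zen, zen2, bcd, ftz and Ama), bcd was called at its own start and Ama through the bcd summit.

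Genes that set, keep or use the Hox domains were counted by the same rules. Of the 10 Trithorax group genes 9 were called, 6 of them at an own start, against the 50.1% and 26.5% of all protein-coding genes. The strongest summit at such a start for kto, a Mediator subunit, had a signal of 300, and trx itself had none. Trl, which encodes GAGA factor, had 5 summits. Of the 17 Polycomb group genes 11 were called, 6 at an own start, among them Scm with a signal of 346, Caf1-55 with 226 and Pc with 162. For pho, which encodes Pleiohomeotic, esc and E(z) there were 0 summits in the conservative set, though E(z) had 2 in the pooled set.

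Beside the same backgrounds of 50.1% called and 26.5% at an own start, 4 of the 6 cofactor and partner genes were called, each at an own start: exd with 147, tio with 147, disco with 107 and disco-r with 99.3. The sets of both replicates called exd and tio, while disco was called in replicate 1's only and disco-r in neither. For hth and tsh there was no summit. Of the 5 gap and caudal genes that set the initial domains 1 was called, kni with 67.4, while cad had 0 conservative summits but 1 in the pooled set and 2 in replicate 1's. In replicate 2's set cad had 0, and kni had 0 in the sets of both replicates. Of the 9 known Hox target genes 2 were called, kn and dpp, neither at an own start. The strongest kn summit lay 360 bp from the start of BEAF-32 and 25366 bp from a start of kn. That of dpp was nearest to tRNA:Tyr-GTA-1-3, 826 bp away, and the sets of replicates 1 and 2 had 0 summits at dpp. In hbn, Rx and otp, a cluster of paired-like homeobox genes, Rx and otp were called, and hbn had 0 conservative summits, against 50.1% called. In the pooled set all of them were called, in replicate 1's set only hbn, with 1 summit, and in replicate 2's none. These lists were read as counts beside the background only.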

How the data were processed

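The samples were 2 biological replicates of whole hbn-GFP embryos, per the labels. The authors derived the peaks from dm6 alignments that had been filtered, with 1 control file, per each sample's deposited README. The aligner and the caller of peaks are not given in the sources used for this work. The authors deposited a score of up to 1000 for each entry, a signal of unstated scale, and in the ranked lists the −log10 of the global IDR. No deposited count of reads was used, so depth is unknown.

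Summits were placed against Ensembl release 115 gene models of the Release 6 assembly with python 3.11.15, pandas 2.3.3, numpy 2.4.6 and scipy 1.17.1, and sequence came from the RefSeq copy. All 8 Hox genes had the same ends in both annotations. Coordinates are 1-based. A gene was called when it had a summit between its ends or up to 5 kb beyond them, and an own start was any annotated transcript start of that gene. No test was run: with 1 group, counts stand beside the share of all genes called. Poisson and Wilson intervals cover counting error only. The counting was tested on simulated summits.

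The members, gene lists and motifs were chosen with earlier results of these data known. Named genes are the Hox genes, the gene with the start nearest to each of their entries, genes inside the complexes, and called members of lists of complex neighbours, cofactors, regulators of the initial domains, Polycomb and Trithorax group genes, targets, and hbn with Rx and otp. List members without a summit that are named were chosen after their values were seen. Alternatives read the pooled or a single replicate's set, IDR limits of 0.001 and 0.05, peak intervals, RefSeq models and other distances. Counting overlapping entries once and leaving out summits at starts of other genes, or at any start, were added after the data were seen.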

Additional observations from a re-analysis of the deposited data

How the results depend on the processing

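The Hox results depended on which list was read more than on the gene models or distances. Against 4 Hox genes called and 1 at an own start in the conservative set, the pooled set gave 2 and 0. An IDR of 0.001 gave 2 genes (Antp and Ubx), 0 at an own start, 2 summits in place of 7, 1 in the Antennapedia complex in place of 3, 1 in the bithorax complex in place of 6, and a background of 36.9%. A score of 540 or more gave 12 summits, 8 and 12 in the complexes, and 59.7%. With each replicate left out in turn, the genes called ranged from 1 to 2, those at an own start were 0 and 0, the summits ranged from 2 to 4, those in the Antennapedia complex from 0 to 1 and in the bithorax complex from 2 to 3, and the background from 37.6% to 47.3%. Without replicate 1 the called gene was Ubx, and without replicate 2 they were Antp and Ubx. Territories of 1 kb and 10 kb gave backgrounds of 33.7% and 60.8%, with 3 and 4 Hox genes called. The cause of these shifts was not tested. Of 60 values under alternatives, 34 kept within the limits used, a ratio of at most 1.5 for counts and the Wilson 95% interval of the background share, so that 6 genes beside 4 counted as kept. Among them were all from RefSeq models, peak intervals and overlapping entries counted once. No paired analysis was possible because there was 1 group. Unknown depth limits the entries missing at Hox starts: they were not detectable in these lists, which does not show that the protein is absent there.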
